A study of Mus musculus with 20 samples.

Results

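Lysosomes are the acidic organelles in which a cell breaks down protein, lipid, glycogen and worn-out organelles. The vacuolar proton pump (V-ATPase) acidifies them: its cytosolic V1 sector splits ATP, and its membrane V0 sector carries protons inward, with the a subunit setting in which membrane the pump sits. Cathepsins and other acid hydrolases then digest the cargo, membrane glycoproteins such as LAMP1 line the organelle, and the transcription factors TFEB and TFE3 switch on many of these genes in fasting. Skeletal muscle fibres depend on this system, as the muscle weakness of acid alpha-glucosidase (Gaa) deficiency shows, and macrophages are particularly rich in it.

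The 45 genes described here were picked by name for these roles: 17 belong to the V-ATPase (7 V0 subunits, 8 V1 subunits and 2 accessory proteins) and 28 to the rest of the lysosome (12 proteases, 5 glycosidases and lipase, 3 lumenal cofactors, 6 membrane proteins and 2 transcription factors). Each was found under its symbol among the 55416 genes of the count table, all 45 had at least 10 counts in every muscle, and all 45 were among the 14471 genes that passed the filter on low counts. The samples were injected quadriceps of male wild-type C57BL/6J mice aged 26 to 28 mo. One group of 10 mice (control) received 50 µL of saline. The other group of 10 (secretome) received 50 µL of a cell-free medium product of pluripotent stem cells, diluted in saline. The product came from partially differentiated human embryonic stem cells. Both groups were in a fasted state when injected. Muscle was taken 3 h after that single injection. Each library was 1 mouse, so n counts mice. The comparison asks how the injected product changed the early RNA response of old muscle.

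Libraries were numbered 1 to 20, and the number was tied to treatment. Libraries 1 to 5 were all control, 6 to 10 control, 11 to 15 secretome, and 16 to 20 all secretome. Totals ran from 13286983 to 22987237 counts per muscle. The share of counts on the titin gene Ttn was 7.02 to 11.03% in libraries 1 to 5, 16.4 to 21.1% in libraries 6 to 15 and 14.2 to 14.7% in libraries 16 to 20, so the outer sets stood apart from the middle one. For the outer sets, library set and treatment cannot be told apart, and the fit over all 20 muscles is therefore set beside a fit within libraries 6 to 15, which hold 5 control and 5 secretome muscles. A value given without naming its libraries is over all 20. Muscle fibre markers were abundant in all libraries, with a summed level of 79927 to 160347 CPM (counts scaled to a common library size). In whole muscle, fewer cells of a type and less RNA per cell cannot be told apart.

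A short palindrome, CACGTG, is the core of the site that TFEB and TFE3 bind in lysosomal genes, and the sequences below are printed because the list was not chosen by them. RefSeq promoters (GRCm38.p6, 250 bases before to 50 after each start) were matched for 37 of the 45 genes. CACGTG stood in a promoter of 13 of the 37 (35.14%), against 8.093% of all 27025 genes with a promoter in the table. The longer palindrome TCACGTGA, which contains the shorter one, stood in 6 of the 37 (16.22%), against 1.125% of all genes. These palindromes read the same on both strands, and a match is a description of the letters only. Below, 30 bases around a TCACGTGA of each of the 6 genes are printed 5′ to 3′ on the strand of the gene, with the palindrome in capitals.
Atp6v0d1, V0 subunit d1, chr8:105566050-105566079, minus strand: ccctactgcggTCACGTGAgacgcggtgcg
Atp6v0e, V0 subunit e, chr17:26676387-26676416, plus strand: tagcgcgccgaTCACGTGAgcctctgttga
Atp6v1a, V1 catalytic subunit A, chr16:44139373-44139402, minus strand: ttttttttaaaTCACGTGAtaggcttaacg
Ctsa, cathepsin A, chr2:164833749-164833778, plus strand: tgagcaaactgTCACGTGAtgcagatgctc
Ctsd, cathepsin D, chr7:142387908-142387937, minus strand: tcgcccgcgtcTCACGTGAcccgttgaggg
Mcoln1, calcium channel mucolipin 1, chr8:3500462-3500491, plus strand: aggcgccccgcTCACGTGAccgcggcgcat
In 5 of these 6 the palindrome lay within 100 bases of the start, and in Atp6v1a it was centred 128 bases before it. CACGTG without the flanking letters was found in Atp6v0b, Ctsf, Ctsl, Lgmn, Gaa, Glb1 and Lamp1, and as a further copy in Ctsd and Mcoln1, and the Lamp1 promoter held 4 copies between 58 and 12 bases before the start. No copy was found at any of the 3 starts listed for Tcirg1. The 60 bases before its most upstream start (chr19:3907134-3907193, minus strand, 80% G or C) are printed because the largest difference among the pump genes was there.
Tcirg1: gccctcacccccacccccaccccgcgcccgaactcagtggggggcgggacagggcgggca

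Levels per kb of exon spanned a wide range, with a saposin precursor, an aspartic protease and a membrane glycoprotein at the top and Tcirg1 near the bottom. The highest was Psap, the precursor of the saposins that present lipids to hydrolases, at 238 ± 65.1 CPM per kb (SD, n = 20). Ctsd, the main aspartic protease of lysosomes, followed at 132 ± 15.01, Lamp1 at 106 ± 15.6, the V1 stalk subunit Atp6v1g1 at 81.3 ± 9.83 and the glycogen-degrading enzyme Gaa at 71.9 ± 10.5 CPM per kb. Psap stood above Ctsd in every muscle, and its range did not overlap that of Ctsd, while Ctsd, Lamp1 and Atp6v1g1 overlapped with their neighbours in this order. At the low end were Tcirg1 at 1.51 ± 0.56, Tfe3 at 1.42 ± 0.33, Ctsk at 1.41 ± 0.71, Ctsh at 1.25 ± 0.58, Lipa at 0.95 ± 0.29 and the beta-galactosidase Glb1 at 0.74 ± 0.20 CPM per kb. These 6 genes also overlapped with each other.

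**Figure D1:**
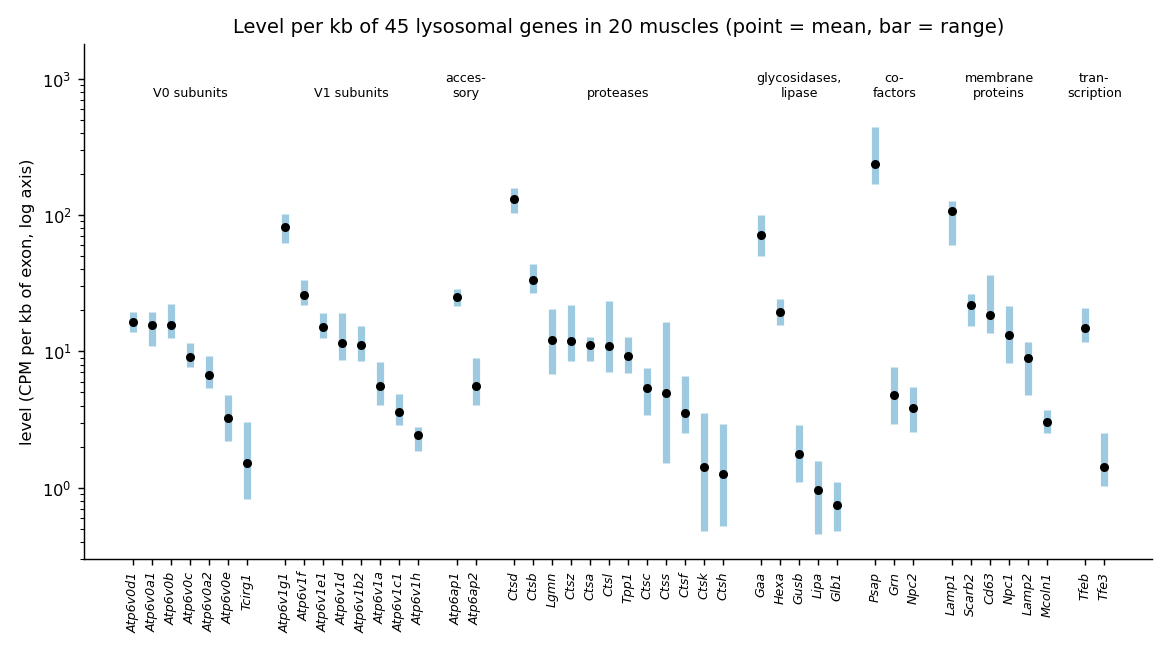
Level of the 45 genes in CPM per kb of exon (log axis), grouped by role and ordered by mean within each role; the point is the mean over 20 muscles and the bar the range from the lowest to the highest muscle. Psap, Ctsd and Lamp1 lie above 100 CPM per kb on average, and Tcirg1 is the lowest of the 7 V0 subunits.

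In secretome muscle, the lumenal proteases, hydrolases and cofactors had lower mean levels than in control muscle, and the pump subunits other than Tcirg1 had log2 fold changes between -0.20 and 0.20. All 12 proteases, all 5 glycosidases and lipase and all 3 cofactors had a negative log2 fold change (secretome over control), with medians of -0.22, -0.23 and -0.38, although Tpp1, at -0.01, was above 0 with RLE normalization and with DESeq2 (0.0039 and 0.011), and Ctsc was above 0 within libraries 6 to 15. The V0 subunits had a median of -0.09, the V1 subunits -0.02, the accessory proteins 0.03, the transcription factors -0.08 and the membrane proteins 0.14. Over all 45 genes, 34 were lower and the median was -0.10, beside -0.03 over all 14471 genes, of which 55.9% were lower. With edgeR's quasi-likelihood test and Benjamini-Hochberg adjustment over all genes, 0 of the 45 passed a 5% false discovery rate (0.00691% of all genes passed as lower and 0% as higher). At an unadjusted p under 0.05, 10 of the 45 were lower (9.21% of all genes) and 1 was higher (6.52% of all genes). With DESeq2, 3 of the 45 passed the 5% false discovery rate and all 3 were lower (0.812% of the 17982 genes DESeq2 tested were called lower and 0.373% higher): Tcirg1, Grn and Npc2.

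**Figure D2:**
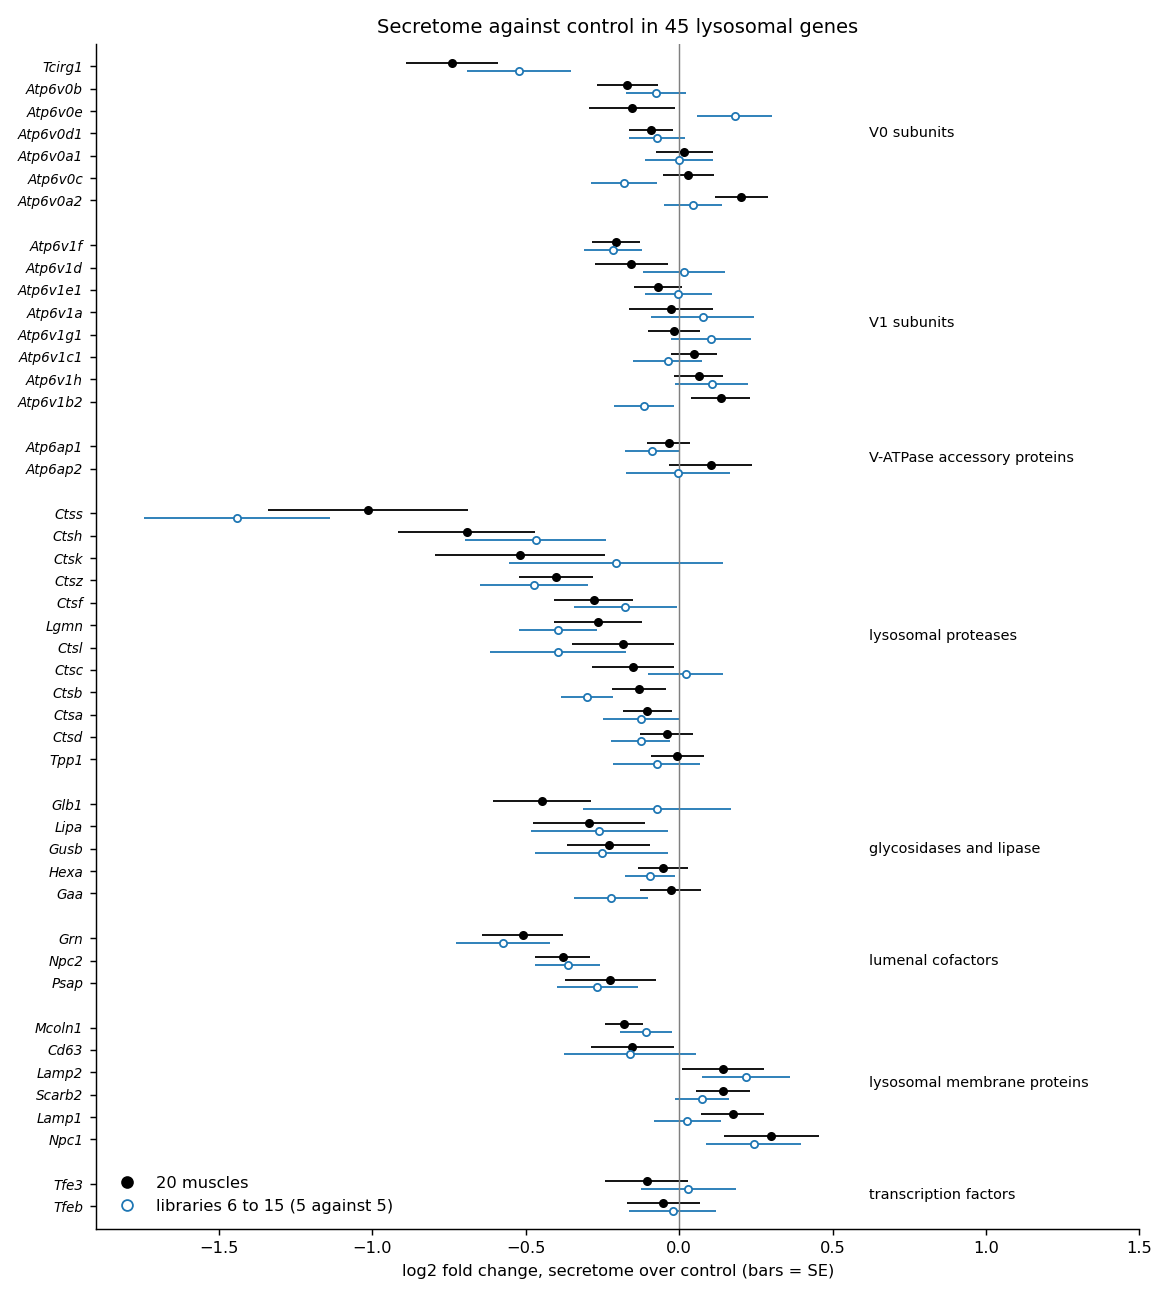
Log2 fold change of secretome over control (x axis, bars are SE) for each gene, grouped by role; filled points are the fit over 20 muscles and open points the fit within libraries 6 to 15. The 12 proteases all lie at or left of 0 over 20 muscles, from -1.01 for Ctss to -0.01 for Tpp1 (0.011 with DESeq2), while 4 of the 6 membrane proteins lie to the right.

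Tcirg1 encodes the a3 form of the V0 a subunit, which the osteoclast uses to pump acid onto bone and which also serves lysosomes of other cells. Its level ran from 6.38 CPM through a median of 7.90 to 13.8 CPM in the 10 control muscles. In the 10 secretome muscles it ran from 3.78 through a median of 5.32 to 6.90 CPM. The secretome muscles were the lower ones: all 10 lay under the control median, 6 control muscles lay above every secretome muscle, and the groups overlapped. The mean was 8.69 ± 2.48 CPM in control and 5.19 ± 0.97 CPM in secretome muscle (SD, n = 10 each), a log2 fold change of -0.74 ± 0.15 (SE). This passed with DESeq2 (log2 fold change -0.72 ± 0.15, adjusted p = 0.0065) and did not pass with edgeR's quasi-likelihood test (adjusted p = 0.10). Over 20 fits that each left out 1 muscle, the DESeq2 adjusted p was 0.0018 to 0.024 and the edgeR adjusted p 0.046 to 0.19, with only the fit without control replicate 5 past the edgeR threshold. A two-sided permutation test of mean log2 CPM in 100000 resamples gave an unadjusted p of 6e-05 for the difference of -0.71 (n = 10 each), and the gene was singled out with earlier results of these muscles known.

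In libraries 6 to 15, Tcirg1 was at 9.10, 6.88, 8.40, 11.04 and 6.38 CPM in the control muscles and 5.89, 6.07, 6.90, 4.62 and 5.35 CPM in the secretome muscles. The highest secretome muscle lay above the lowest 2 control muscles, so the groups overlapped here too. The log2 fold change was -0.52 ± 0.17 (edgeR unadjusted p = 0.0081, adjusted p = 0.44), and an exact two-sided permutation test of 5 against 5 muscles gave p = 0.024. Between libraries 1 to 5 and 16 to 20 the log2 fold change was -0.96 ± 0.21 (edgeR adjusted p = 0.020), taken from a joint fit of all 20 muscles. In these outer libraries, library set and treatment cannot be told apart. For them the joint fit called 294 of 14471 genes lower and 238 higher at the 5% false discovery rate. Among the 45 genes, 3 passed in the outer libraries, all lower. The fit of libraries 6 to 15 used those muscles alone and called 0. These fits differ in power, so their counts and adjusted p cannot be compared directly. In the joint fit, the effect within libraries 6 to 15 minus that in the outer libraries was 0.43 (edgeR unadjusted p = 0.16).

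Tcirg1 is 1 of 3 a-subunit genes in the list, and the others are far more abundant in muscle. Atp6v0a1, the a1 form, stood at 15.7 ± 2.09 and Atp6v0a2, the a2 form of Golgi and endosomes, at 6.71 ± 0.98 CPM per kb over 20 muscles. Tcirg1 supplied 8.04 ± 2.37% of the summed per-kb level of the 3 genes in control muscle and 4.66 ± 0.62% in secretome muscle (SD, n = 10 each). The groups nearly separated, with 5.51 to 12.3% in control against 3.77 to 5.55% in secretome muscle. The two-sided permutation test gave an unadjusted p of 2e-05, the smallest that 100000 resamples allow. The exact test within libraries 6 to 15 gave p = 0.016 for 7.23 ± 1.30 against 5.08 ± 0.34% (n = 5 each). Tcirg1 enters this share and was singled out with earlier results of these muscles known. The share is therefore not evidence separate from the lower Tcirg1 level above. Atp6v0a4, the a4 form, fell below the filter on low counts and was not tested with edgeR.

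Of the other V0 subunits, Atp6v0a2 was the only gene of the 45 that was higher at an unadjusted p under 0.05. It ran from 36.1 through a median of 41.5 to 50.9 CPM in control and from 39.7 through 47.2 to 62.1 CPM in secretome muscle. The groups overlapped widely, although 9 of the 10 secretome muscles lay above the control median. Its log2 fold change was 0.20 ± 0.09 over 20 muscles (edgeR unadjusted p = 0.027, adjusted p = 0.27) and 0.05 ± 0.09 within libraries 6 to 15. The remaining V0 subunits, Atp6v0a1, Atp6v0b, Atp6v0c, Atp6v0d1 and Atp6v0e, had log2 fold changes between -0.17 and 0.03. In the middle libraries, Atp6v0c had -0.18 ± 0.11 in place of 0.03 ± 0.08, and Atp6v0e, which carries a TCACGTGA at its start, had 0.18 ± 0.12 in place of -0.15 ± 0.14. The effects within and outside these libraries differed at unadjusted p of 0.0042 and 0.019.

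Among V1 subunits, Atp6v1f, a rotor subunit, was lower at an unadjusted p under 0.05 both over all muscles and in the middle libraries. It ran from 23.6 through 29.02 to 35.5 CPM in control and from 23.1 through 25.04 to 29.7 CPM in secretome muscle. All but 1 secretome muscle lay under the control median. The log2 fold change was -0.20 ± 0.08 over 20 muscles (edgeR unadjusted p = 0.016, adjusted p = 0.23) and -0.22 ± 0.10 within libraries 6 to 15 (unadjusted p = 0.039). Atp6v1b2, the B subunit found in most tissues, had a log2 fold change of 0.14 ± 0.10 over 20 muscles but -0.11 ± 0.10 within libraries 6 to 15, and the test of the difference gave an unadjusted p of 0.0039. The other 6 V1 subunits lay between -0.16 and 0.06, and between -0.04 and 0.11 within libraries 6 to 15, where Atp6v1a, Atp6v1c1, Atp6v1d and Atp6v1g1 had the opposite sign. The accessory proteins Atp6ap1, which aids pump assembly, and Atp6ap2, the prorenin receptor, had log2 fold changes of -0.03 ± 0.07 and 0.10 ± 0.14.

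Among the 12 proteases, Ctss, Ctsh, Ctsz and Ctsf were lower at an unadjusted p under 0.05. Ctss, the cathepsin of antigen-presenting cells that trims the invariant chain of MHC class II, had the largest difference of all 45 genes. It ran from 4.36 through a median of 7.22 to 22.3 CPM in control and from 2.06 through 3.20 to 9.26 CPM in secretome muscle. Among the secretome muscles, libraries 16, 17 and 18 were high, at 6.31, 8.86 and 9.26 CPM, and the other 7 lay at 3.68 CPM or below, under every control muscle. The log2 fold change was -1.01 ± 0.33 (edgeR adjusted p = 0.17, DESeq2 adjusted p = 0.065). With DESeq2 it passed in 4 of 20 fits that left out 1 muscle, without control replicate 5 or 8 or secretome replicate 7 or 8 (adjusted p of 0.017 to 0.040). The groups did not overlap within libraries 6 to 15: control muscles were at 7.06, 5.91, 4.36, 15.2 and 7.08 CPM and secretome muscles at 2.31, 3.38, 2.06, 3.68 and 3.02 CPM. There the log2 fold change was -1.44 ± 0.30 (edgeR unadjusted p = 0.00033, adjusted p = 0.34).

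Ctsh, an aminopeptidase cathepsin, ran from 3.31 through 6.27 to 13.1 CPM in control and from 2.37 through 4.04 to 6.76 CPM in secretome muscle. The high control values were in libraries 1 to 5, whose mean was 9.08 ± 2.63 CPM, against 4.82 ± 1.40 CPM in libraries 6 to 10 (SD, n = 5 each). Its log2 fold change was -0.69 ± 0.22 over 20 muscles (edgeR adjusted p = 0.17) and -0.47 ± 0.23 within libraries 6 to 15 (unadjusted p = 0.062). With DESeq2, Ctsh passed without control replicate 7 or 8 or secretome replicate 8 (adjusted p of 0.035 to 0.048). Ctsz, a carboxypeptidase cathepsin, ran from 15.9 through 17.8 to 31.3 CPM in control and from 12.2 through 15.3 to 16.3 CPM in secretome muscle. All 10 secretome muscles lay under the control median, and control replicates 3 and 9, at 27.4 and 31.3 CPM, stood above the other controls. The log2 fold change of Ctsz was -0.40 ± 0.12 over 20 muscles (edgeR adjusted p = 0.16) and -0.47 ± 0.18 within libraries 6 to 15 (unadjusted p = 0.018). Ctsf, a cysteine cathepsin, had -0.28 ± 0.13 over 20 muscles (edgeR adjusted p = 0.30) and -0.17 ± 0.17 within libraries 6 to 15. Without control replicate 2, whose 33.1 CPM stood above the other controls at 14.3 to 25.5 CPM, it had -0.16.

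The abundant proteases differed less. Ctsd stood at 314 ± 37.6 CPM in control and 305 ± 34.2 CPM in secretome muscle, a log2 fold change of -0.04 ± 0.09. Ctsb, an abundant cysteine cathepsin of many cell types, had a log2 fold change of -0.13 ± 0.09 over 20 muscles. The Ctsb groups did not overlap within libraries 6 to 15: control muscles were at 212, 215, 209, 202 and 226 CPM and secretome muscles at 181, 163, 165, 179 and 171 CPM, with a log2 fold change of -0.30 ± 0.08 (edgeR unadjusted p = 0.0033, adjusted p = 0.41). Secretome libraries 16 to 20 were higher, at 217 ± 18.8 CPM on average (SD, n = 5), and the test of the difference between the effects gave an unadjusted p of 0.028. Lgmn, the asparaginyl endopeptidase legumain, had -0.26 ± 0.14 over 20 muscles and -0.39 ± 0.13 within libraries 6 to 15 (unadjusted p = 0.0072). Ctsk, the collagen-degrading cathepsin of osteoclasts and fibroblasts, had -0.52 ± 0.28 from a level of only 2.52 ± 1.31 CPM in control muscle (n = 10, edgeR adjusted p = 0.36). Ctsa, Ctsc, Ctsl and the tripeptidyl peptidase Tpp1 lay between -0.18 and -0.01.

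**Figure D3:**
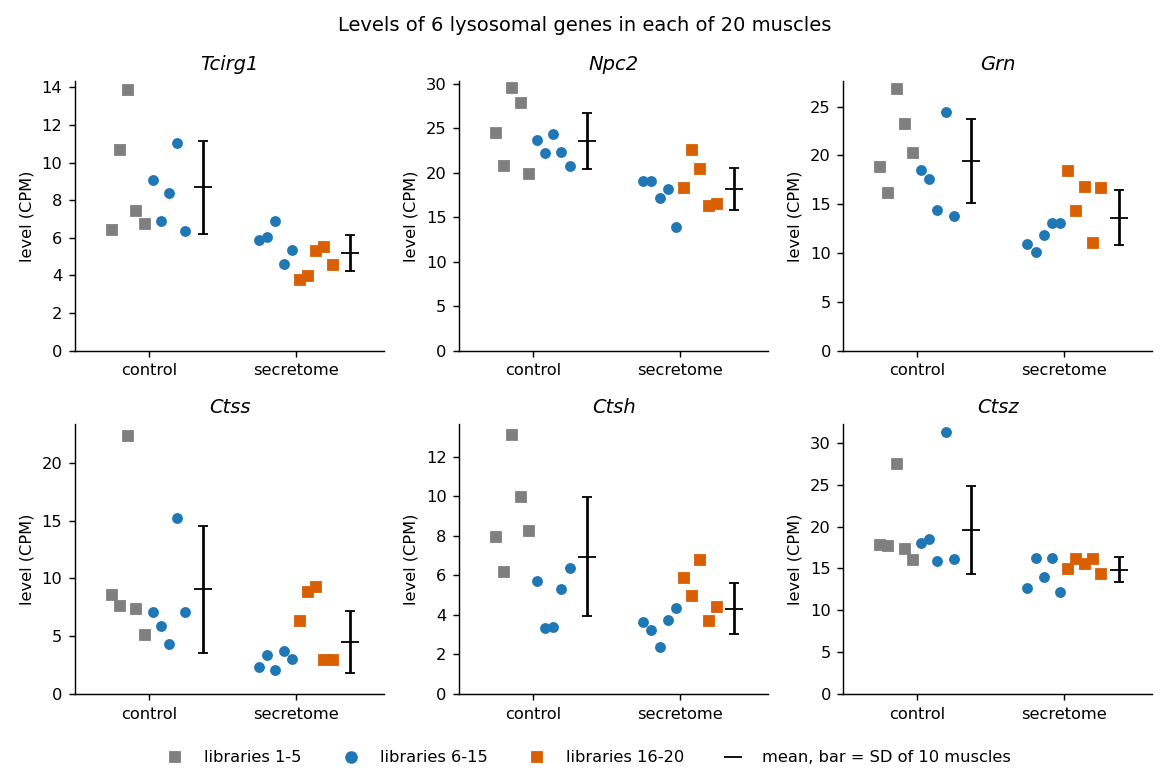
Level in CPM (y axis, from 0) of Tcirg1, Npc2, Grn, Ctss, Ctsh and Ctsz in each of the 10 control and 10 secretome muscles; squares and circles mark the sets of library numbers, and the bar is the mean with SD. The groups overlap for all 6 genes, and all 10 secretome muscles of Tcirg1, Npc2, Grn and Ctsz lie under the control median.

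The cofactors Grn and Npc2 were the other genes past the DESeq2 threshold. Grn, the precursor of the granulins that sustain hydrolase activity, ran from 13.8 through 18.7 to 26.8 CPM in control and from 10.1 through 13.1 to 18.4 CPM in secretome muscle. All 10 secretome muscles lay under the control median and the groups overlapped. The log2 fold change was -0.51 ± 0.13 (edgeR adjusted p = 0.12, DESeq2 adjusted p = 0.036). In the middle libraries, 6 to 15, control muscles were at 18.5, 17.6, 14.4, 24.5 and 13.8 CPM and secretome muscles at 10.9, 10.1, 11.9, 13.04 and 13.1 CPM. They did not overlap, and the log2 fold change was -0.57 ± 0.15 (edgeR unadjusted p = 0.0021, adjusted p = 0.40). The DESeq2 call of Grn was lost in 11 of the 20 fits that left out 1 muscle (control replicate 1, 3, 4, 6 or 9, or secretome replicate 1, 2, 3, 4, 5 or 9), with adjusted p of 0.050 to 0.12 in those fits.

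Npc2, which carries cholesterol out of the lysosomal lumen, ran from 19.9 through 22.99 to 29.5 CPM in control and from 13.9 through 18.3 to 22.5 CPM in secretome muscle. All 10 secretome muscles again lay under the control median. The log2 fold change was -0.38 ± 0.09 (edgeR adjusted p = 0.11, DESeq2 adjusted p = 0.017), and the DESeq2 call was lost in 1 of the 20 fits that left out a muscle, that without control replicate 3, with adjusted p = 0.063. Within libraries 6 to 15, control muscles were at 23.7, 22.2, 24.4, 22.3 and 20.8 CPM and secretome muscles at 19.1, 19.1, 17.2, 18.2 and 13.9 CPM. These groups did not overlap, and the log2 fold change was -0.36 ± 0.11 (edgeR unadjusted p = 0.0040, adjusted p = 0.41). Psap, by contrast in level, stood at 704 ± 219 CPM in control and 603 ± 117 CPM in secretome muscle (log2 fold change -0.22 ± 0.15, adjusted p = 0.46).

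Among glycosidases, Glb1 was lower at an unadjusted p under 0.05, at 2.58 ± 0.64 CPM in control and 1.89 ± 0.29 CPM in secretome muscle (n = 10 each, log2 fold change -0.45 ± 0.16, edgeR adjusted p = 0.20). The difference lay in the outer libraries: 3.01 ± 0.29 CPM in libraries 1 to 5 against 1.76 ± 0.21 CPM in libraries 16 to 20, but 2.14 ± 0.62 against 2.02 ± 0.31 CPM within libraries 6 to 15 (n = 5 each). The effects differed at an unadjusted p of 0.024. Glb1 had 27 to 60 counts per muscle and shares 165 exon bases on the same strand with Tmppe, so the split of reads between them is uncertain. Gusb, the beta-glucuronidase, had -0.23 ± 0.14, the acid lipase gene Lipa -0.29 ± 0.18, Hexa -0.05 ± 0.08 and Gaa -0.03 ± 0.10. Exons of Ctsa, Ctsb, Lamp1 and Npc1 overlap those of Pltp, Fdft1, Grtp1 and Rmc1 on the opposite strand (495, 774, 249 and 511 bases). Ctsa also shares 324 bases with Neurl2, and Ctsz 10 bases with Nelfcd, again on the opposite strand. The sources used here do not say whether strand was used in counting, so the counts of these genes may hold reads of their neighbours.

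Of the 6 membrane proteins, 4 had a positive log2 fold change and 2 a negative one, both over 20 muscles and within libraries 6 to 15, where the median was 0.05. Whether they differed from the lumenal genes was not tested. Npc1, the membrane partner of Npc2 in cholesterol export, ran from 93.6 through 120 to 227 CPM in control and from 127 through 159 to 245 CPM in secretome muscle. All 10 secretome muscles lay above the control median, yet the log2 fold change of 0.30 ± 0.16 had an edgeR unadjusted p of 0.065. Lamp1, Lamp2 and Scarb2, the glycoproteins of the lysosomal membrane, had log2 fold changes of 0.17 ± 0.10, 0.14 ± 0.13 and 0.14 ± 0.09. Mcoln1 was lower at an unadjusted p under 0.05, at 24.3 ± 1.78 CPM in control and 21.5 ± 1.31 CPM in secretome muscle (log2 fold change -0.18 ± 0.06, edgeR adjusted p = 0.20), and had -0.11 ± 0.09 within libraries 6 to 15. The tetraspanin Cd63 had -0.15 ± 0.14. The transcription factors stood at 86.3 ± 18.7 against 83.3 ± 14.2 CPM for Tfeb and 13.6 ± 4.17 against 12.6 ± 1.47 CPM for Tfe3 (control against secretome, n = 10 each), with log2 fold changes of -0.05 ± 0.12 and -0.10 ± 0.14.

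Within libraries 6 to 15, 8 of the 45 genes were lower at an unadjusted p under 0.05 (4.88% of all genes) and 0 were higher (5.02% of all genes): Tcirg1, Atp6v1f, Ctsb, Ctss, Ctsz, Lgmn, Grn and Npc2. With edgeR, 0 passed the 5% false discovery rate there. Whether the DESeq2 calls of Tcirg1, Grn and Npc2 held in libraries 6 to 15 alone is not reported here. The sign there was opposite to that over 20 muscles for 11 of the 45: Atp6v0a1, Atp6v0c, Atp6v0e, Atp6v1a, Atp6v1b2, Atp6v1c1, Atp6v1d, Atp6v1g1, Atp6ap2, Ctsc and Tfe3. The log2 fold changes of these 11 were at most 0.16 in size over 20 muscles and at most 0.18 within libraries 6 to 15. Ctsb, Ctss, Grn and Npc2 were lower without overlap of the groups in these libraries, which 1.09% of all genes were. Over all 20 muscles, 0 of the 45 had groups without overlap (0.0138% of all genes lower and 0.0346% higher). All 10 secretome muscles lay under the control median for 5 of the 45 (3.39% of all genes): Tcirg1, Ctsz, Glb1, Grn and Npc2. Genes with all 10 above the control median included Npc1 and Atp6v1c1. Atp6v1c1 had a log2 fold change of only 0.05 (edgeR unadjusted p = 0.53). The share of all genes in that upward direction was not counted. The effect within libraries 6 to 15 differed from that outside at an unadjusted p under 0.05 for 7 of the 45. It was more positive for Atp6v0e and Glb1 (5.59% of all genes) and more negative for Atp6v0a2, Atp6v0c, Atp6v1b2, Ctsb and Gaa (5.51% of all genes), and the smallest adjusted p of the 45 was 0.21.

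Macrophage markers had lower mean levels in secretome muscle, as the lumenal genes did. Of 13 markers, 12 were tested, all 12 had a negative log2 fold change (55.9% of all genes) and 5 of these had an unadjusted p under 0.05 (9.21% of all genes): Adgre1 (-0.82), Csf1r (-0.76) and the complement genes C1qa (-0.75), C1qb (-0.74) and C1qc (-0.97). With edgeR 0 passed the 5% false discovery rate, and with DESeq2 Csf1r did (adjusted p = 0.047). All 12 were again negative within libraries 6 to 15, 6 of them at an unadjusted p under 0.05 (4.88% of all genes). None of the 13 was at 0 in all muscles. Their summed level ran from 60.5 through a median of 102 to 190.5 CPM in control and from 47.8 through 57.7 to 139 CPM in secretome muscle. Within libraries 6 to 15 it was 60.5 to 138 CPM against 47.8 to 59.7 CPM, so these groups did not overlap. The part of macrophages in the lower lysosomal levels was not tested.

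Each of the 45 genes was correlated across muscles with the sum of the 13 macrophage markers, on the log2 scale, with permutation p-values. Over 20 muscles, Pearson's r was positive at an unadjusted p under 0.05 for 13 of the 45 (9.63% of all genes) and negative for 1 (5.79%). In libraries 6 to 15 it was positive for 11 (8.28%) and negative for 1 (9.11%). After adjustment over the 45 alone, 9 were positive over 20 muscles (Atp6v0d1, Atp6v1f, Ctsh, Ctsk, Ctss, Ctsz, Hexa, Grn and Npc2), and after adjustment over all genes 5 were (Ctsh, Ctsk, Ctss, Hexa and Grn). Spearman's rho, adjusted over the 45, gave 6 (Ctsh, Ctsk, Ctss, Hexa, Grn and Npc2). These counts were 4 (Atp6v1f, Ctss, Ctsz and Grn), 0 and 1 (Ctss) in libraries 6 to 15. No correlation was negative after adjustment.

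Both the marker sum and the mean levels of several of the genes were lower in secretome muscle, so the correlation was repeated with the mean of each treatment taken off and muscles permuted within treatments, a choice made after seeing the data. Over 20 muscles, 9 of the 45 were then positive at an unadjusted p under 0.05 (7.95% of all genes) and 0 negative (5.47%). Adjusted over the 45, 5 were positive (Ctsh, Ctsk, Ctss, Hexa and Grn). Within libraries 6 to 15, 5 were positive at an unadjusted p under 0.05 (3.64% of all genes) and 0 negative (3.7%), and 0 remained after adjustment. With the mean of each of the 4 sets of 5 muscles taken off, 2 were positive after adjustment over the 45 (Ctsh and Grn). Ctss had r = 0.81 and rho = 0.82 over 20 muscles (adjusted over all genes, permutation p = 0.0074 for r), and r = 0.78 with the treatment means taken off (permutation p = 0.023, adjusted likewise). Grn had r = 0.85 and rho = 0.83 over 20 muscles (permutation p = 0.0041, adjusted over all genes), and r = 0.84 with the treatment means taken off (permutation p = 0.011, adjusted likewise). Without the 2 muscles farthest from the median, r was 0.81 for Ctss and 0.78 for Grn. For the middle libraries, r was 0.96 for Ctss and 0.83 for Grn, and 0.92 and 0.61 with the treatment means taken off. Tcirg1 had r = 0.23 and rho = 0.17 over 20 muscles (unadjusted permutation p = 0.34 and 0.48), r = -0.031 without the 2 farthest muscles and r = -0.13 with the treatment means taken off. Its r within libraries 6 to 15 was 0.75 (unadjusted permutation p = 0.010), and 0.47 with the treatment means taken off (p = 0.31).

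**Figure D4:**
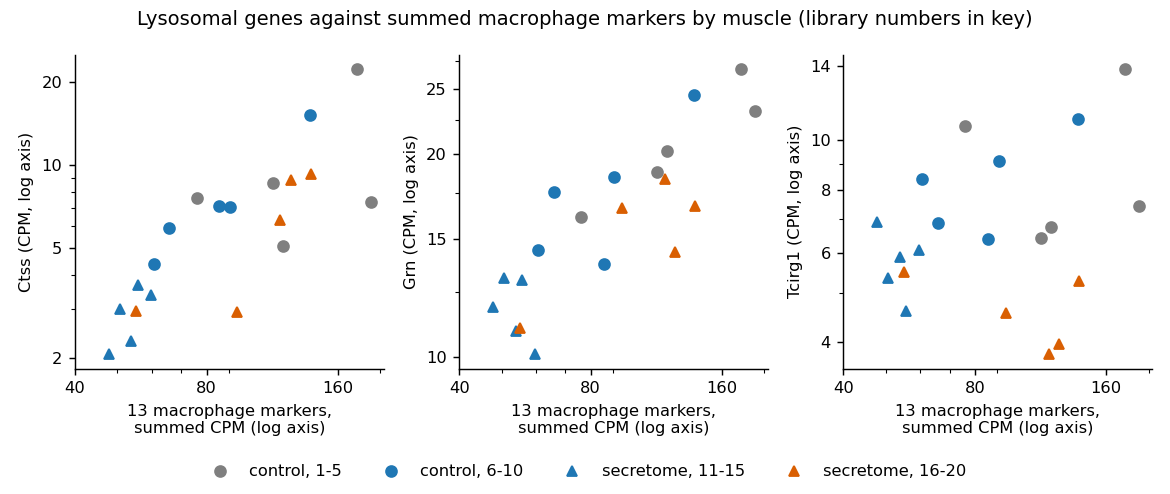
Level of Ctss, Grn and Tcirg1 (y axes, CPM, log) against the summed CPM of 13 macrophage markers (x axis, log) in 20 muscles; circles are control, triangles secretome, and colours the sets of library numbers. Ctss and Grn are higher where the marker sum is higher (r = 0.81 and 0.85), r is 0.23 for Tcirg1, and the secretome libraries 16 to 20 have low Tcirg1 at both low and high marker sums.

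Other cell types gave a mixed picture. Of the 7 osteoclast markers, 5 were near 0: Calcr, Oscar, Ocstamp, Dcstamp and the osteoclast pump subunit Atp6v0d2 had mean levels of at most 0.34 CPM in either group. The acid phosphatase gene Acp5, which macrophages also express, stood at 2.00 ± 1.15 CPM in control and 1.32 ± 0.81 CPM in secretome muscle. Nfatc1, a transcription factor that other cells also use, made up most of the summed level of the list, at 73.6 ± 10.2 CPM in control and 77.9 ± 8.01 CPM in secretome muscle. All 7 fibroblast markers, all 3 adipocyte markers and all 3 Schwann cell markers had negative log2 fold changes, as did 4 of 5 endothelial markers, with 0 of them at an unadjusted p under 0.05. The 5 neutrophil markers tested were split, 2 lower and 3 higher, with 0 at an unadjusted p under 0.05, and the 8 fibre markers all had positive log2 fold changes, again with 0. These directions were not all the same within libraries 6 to 15: 4 fibroblast markers were negative and 3 positive (1 at an unadjusted p under 0.05), 2 Schwann cell markers were negative and 1 positive, all 5 endothelial and all 3 adipocyte markers were negative (1 of each at an unadjusted p under 0.05), and 5 fibre markers were negative and 3 positive. T and B cell markers fell below the filter on low counts used with edgeR, with summed levels of 0.12 to 7.09 CPM in control and 0.00 to 1.32 CPM in secretome muscle for T cells, and 0.40 to 5.39 against 0.055 to 0.86 CPM for B cells. DESeq2 tested 4 of the 6 T cell and all 3 B cell markers, and 2 of each passed the 5% false discovery rate as lower (0.812% of all genes): Cd3e (-3.64), Trac (-2.49), Ms4a1 (-3.25) and Cd79a (-2.70). With 1 muscle left out, DESeq2 called 0 to 2 T cell markers (0 without control replicate 3 or 7) and 0 to 3 B cell markers (0 without control replicate 1, 3, 6 or 7 or secretome replicate 4, 6, 9 or 10). From libraries 6 to 15 alone, DESeq2 tested no T cell marker and 1 B cell marker, which was negative and did not pass. The part of these cell types in the lysosomal differences was not tested.

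Beyond the 45, 87 further genes of the pathway were read from the same fit, and 79 were tested. At an unadjusted p under 0.05, 14 were lower (9.21% of all genes) and 5 higher (6.52% of all genes), and 0 passed the 5% false discovery rate with edgeR. The median was -0.08. At that unadjusted p, the hydrolases gave most of the lower genes, 8 of 32, against 1 higher. Gm2a, the activator protein of ganglioside breakdown, had -0.57 ± 0.14 and Man2b1, the lysosomal alpha-mannosidase, -0.42 ± 0.10 (edgeR adjusted p = 0.11 for both, DESeq2 adjusted p = 0.022 and 0.030). Of 21 further membrane proteins, 3 were lower and 2 higher at an unadjusted p under 0.05. Tmem175, a lysosomal potassium and proton channel, was at -0.29 ± 0.10 and Laptm5, a lysosomal protein of blood cells, at -0.69 ± 0.25. Of the other V-ATPase genes, 5 of 11 were tested and 0 had an unadjusted p under 0.05, with the e subunit gene Atp6v0e2 at -0.11 ± 0.10 and the assembly factor gene Ccdc115 at -0.09 ± 0.10. Of the 6 genes that sort lysosomal enzymes, 3 had a negative log2 fold change, and 1 was lower at an unadjusted p under 0.05. This was Gnptg, a subunit of the enzyme that tags lysosomal enzymes with mannose 6-phosphate (-0.25 ± 0.09), and Nagpa was at -0.21 ± 0.16. All 3 tested cystatins, the protein inhibitors of cathepsins, had a negative log2 fold change. Only Cstb had an unadjusted p under 0.05 (-0.57 ± 0.23), and the secreted cystatin C gene Cst3 was at -0.20 ± 0.11. The last list held 12 tested genes of nutrient signalling at the lysosome and the factors related to TFEB. At an unadjusted p under 0.05, Rragd (0.25 ± 0.09) and Mitf (0.22 ± 0.09) were higher and Lamtor4 (-0.54 ± 0.19) was lower.

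Genes whose level followed that of Tcirg1 from muscle to muscle were sought with Spearman's rho over 20 muscles, after the mean of each treatment was taken off. The highest values were for Tcf3 (0.91), Arhgef1 (0.89), Coro7 (0.88), Tap2 (0.88), Agrn (0.88), Col7a1 (0.87), Fpgs (0.87), Kti12 (0.87), Arhgef2 (0.86) and Fam219a (0.86). None of these 10 was among the 45 lysosomal genes. The values are descriptions over muscles that also share library set and depth.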

How the data were processed

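The authors removed ribosomal RNA from total RNA and made stranded libraries. The deposited values are whole-number counts per gene, without normalization, in 1 column for each of 20 muscles. Per the labels' processing notes, cutadapt 1.16, STAR 2.7.9a, featureCounts 1.6.3, DESeq2 1.34.0 and the build GRCm39 were used; the strand setting and annotation release are not given in the sources used here, so reads of overlapping genes may not be separated. No columns were identical. Groups came from the sample labels.

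Genes were filtered with filterByExpr (14471 of 55416 kept), normalized with TMM and tested with the robust quasi-likelihood F-test of edgeR 4.0.16 in R 4.3.3, with Benjamini-Hochberg adjustment over all genes. SE was computed by dividing the log2 fold change by the square root of F. CPM are counts scaled to a common normalized library size; the log scale used a prior count of 2. Exon lengths (per kb) came from GENCODE M21 on GRCm38, and promoters from RefSeq on GRCm38.p6; neither is the authors' build. Alternatives were DESeq2 1.42.0, RLE normalization, no filter, the replicate number as a block, limma 3.58.1 voom with quality weights, library numbers as a term in 3 ranges (1 to 5, 6 to 15, 16 to 20), libraries 6 to 15 alone, a 10% false discovery rate, and each muscle left out. DESeq2 with each muscle left out and fits within libraries 6 to 15 without a muscle, the correlation with treatment or set means taken off, and its adjustment over all genes were added after seeing the data. The fits were tested on simulated data.

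The 45 genes and all other lists were chosen with earlier results of these data known. All 45 could be named. Those chosen for fuller values were Tcirg1, the 2 genes with the smallest p in each role class and every gene with an unadjusted p under 0.05 or past the DESeq2 threshold, 18 in all. Of these, Gusb, Atp6ap1 and Atp6ap2 were described above by a log2 fold change with SE only, and Atp6v1b2 without levels. Ctsb, Lgmn and Ctsk were also given values after these were seen. From each other list, the 2 genes with the smallest p were named, and Mitf, C1qa, C1qb and C1qc beyond that; 1 further macrophage marker and 1 B cell marker are not reported here and were left out of the counts and sums, after their values had been seen; the 10 genes with the highest rho with Tcirg1 were named. The protein sequences were not used here. The replicate numbers did not pair the muscles: correlations of deviations of same-numbered muscles ran from -0.24 to 0.22, with 2 of 10 above 0.1.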

Additional observations from a re-analysis of the deposited data

Results flagged for a closer look

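In each group of 10 muscles, the highest and lowest log2 CPM of each of the 45 genes was compared with its nearest neighbour, and in 7 of 90 groups that gap, as a share of the whole range, was larger than Dixon's test allows for 10 values at the 95% level. Chance flags about 1 in 20 groups, or 4.5 of 90. Control replicate 9 was high in 4 of the 7: Ctsl, at 7.24 against 6.37 for the next muscle, Cd63, at 7.05 against 6.27, Atp6v1c1, at 4.77 against 4.33, and Atp6ap2, at 4.54 against 3.91. Of the secretome muscles, replicate 8 was high in Atp6v1c1, at 4.48 against 4.38, and replicate 3 was high in Atp6v1g1, at 6.86 against 6.58, and low in Tfe3, at 3.27 against 3.58.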

How the results depend on the processing

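No member passed the 5% false discovery rate in the edgeR fits with RLE normalization, without the filter, with library ranges as a term or within libraries 6 to 15, nor with voom, and none passed at 10% with edgeR, where DESeq2 gave 6. Leaving out 1 muscle gave 0 to 1 with edgeR (1 without control replicate 5). DESeq2 called 3, and 1 to 5 with 1 muscle left out (1 without control replicate 3, 2 without control replicate 1, 4, 6 or 9 or secretome replicate 1, 2, 3, 4, 5 or 9, and 5 without control replicate 8 or secretome replicate 8). Tcirg1 was lower in every fit. Its log2 fold change passed with DESeq2 (-0.72) and was -0.79 to -0.64 in edgeR with 1 muscle left out (past the threshold without control replicate 5), while its adjusted p reached 0.79 with the term for ranges. The outer ranges held only control or only secretome muscles. With the term for ranges, treatment was therefore compared only within libraries 6 to 15, and that fit is not a check separate from the fit of libraries 6 to 15. Members lower at an unadjusted p under 0.05 went from 10 to 6 with the term for ranges. Members higher went from 1 to 2 without the filter, to 0 with voom, the ranges or libraries 6 to 15, and to 0 to 2 with 1 muscle left out (0 without control replicate 3 or secretome replicate 9 or 10; 2 without control replicate 5 or 8 or secretome replicate 8). Within libraries 6 to 15 that count was 0 to 2 with 1 muscle left out (2 without control replicate 8, 1 without secretome replicate 3). Further pathway genes that were lower went from 14 to 6 with the ranges and 5 within libraries 6 to 15; those higher went from 5 to 1 with the ranges and to 1 to 8 with 1 muscle left out (1 without control replicate 9, 8 without control replicate 1, and 2 to 3 without control replicate 3 or secretome replicate 4, 6 or 7). Positive correlations with the macrophage sum went from 9 to 4 within libraries 6 to 15, to 4 without the 2 muscles farthest from the median, to 5 without control replicate 3 or with treatment means taken off over 20 muscles, to 0 with these taken off within libraries 6 to 15, and to 2 with the means of the 4 sets of 5 taken off. The causes were not tested. Of the 45, 17 turned direction in at least 1 fit: 11 with the ranges and 11 within libraries 6 to 15 (at most 0.19 in size), 7 with voom, 1 (Tpp1) each with DESeq2, RLE normalization, no filter and the replicate block, and 0 to 4 with 1 muscle left out. Of the 18 genes chosen for fuller values, 4 turned in the edgeR and voom fits: Atp6v1b2 (-0.13 with the ranges, -0.11 within libraries 6 to 15), Atp6ap2 (-0.016 and -0.0035), Tfeb (0.0091 without control replicate 2, and -0.10 to 0.0091 over the muscles left out) and Tfe3 (0.027 with voom, 0.018 with the ranges, 0.030 within libraries 6 to 15, 0.016 without control replicate 3, and -0.15 to 0.016 over the muscles left out).

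With the replicate number as a block, 0 members passed, 9 were lower and 1 higher at an unadjusted p under 0.05, and the log2 fold change of Tcirg1 was -0.72; the numbers did not pair the muscles.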
